A study of Rattus norvegicus with 12 samples.

Results

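The removal of macrophages (Mφs) from the cervix of late pregnant rats was examined in 6 of the 12 rats of the series, 3 measured with Mφs in the cell suspension and 3 after a step to remove them. All 6 were Sprague Dawley rats killed at 21 days after breeding (D21), near the end of pregnancy, and perfused with saline before the cervix was minced and dispersed with collagenase and DNAase. The suspensions of rats 5, 6 and 7 were frozen as they were (whole cervix). Those of rats 1, 2 and 4 were first incubated with ED1, an antibody against the Cd68 protein of Mφs, then with magnetic beads, and the cells left in the supernatant were frozen (depleted cervix). RNA of each rat was hybridised to its own 1-colour Agilent array, and 6 other rats, nonpregnant (NP) in proestrus and treated in the same 2 ways, served as a comparison. The design asks which transcripts of the prepartum cervix are lost with its Mφs. The whole suspensions did not go through the antibody, bead and magnet steps, and the 2 groups are different animals, so that the removal of Mφs, the added handling and the animals cannot be told apart.

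Mφs are phagocytes that take up and digest debris, pathogens and extracellular matrix, present antigen to T cells through MHC class II proteins, and release enzymes, cytokines and chemokines. They become numerous in the cervix late in pregnancy, when its collagen network loosens ahead of labour, and most need signalling through the receptor of colony stimulating factor, Csf1r, to survive. Immediate-early genes, which encode short-lived transcription factors such as Fos and Egr1, are transcribed within minutes of many stimuli, in most cell types.

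Array slide and scan day ran with the groups. There were 4 slides and 3 scan days: whole rats 5, 6 and 7 were all on slide 4 and scan day 3, depleted rat 1 was on slide 2 and day 2, depleted rat 2 on slide 1 and day 1, and depleted rat 4 on slide 3 and day 3. No slide held both D21 groups, and the only depleted array scanned with the whole arrays was that of rat 4. Between 51.1% and 60.6% of the probes of a D21 array were rated well above background by the scanner software. Levels are log2 intensities with the 75th percentile of each array set to 0, and changes and differences are whole minus depleted on that scale, so that a gene lost with the removal has a positive change. Depleted rat 4 stood apart from the other depleted rats: 330 genes were at least 4-fold above and 235 at least 4-fold below both of them, which is 3.96% of the 14255 genes tested, against 0.0842% to 0.982% for the other 5 rats. Results are given over all 6 rats and, for the lists on which most is said, also within scan day 3, where the whole rats were compared with rat 4 alone, which is then assumed to vary like the rest.

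Of 14255 genes tested with limma, 1466 (10.3%) were higher in whole and 1141 (8%) higher in depleted cervix (Benjamini-Hochberg adjusted p under 0.05, and a 2-fold or larger difference). For 164 of the genes higher in whole cervix, no depleted array was well above background, and for 84 of the genes higher in depleted cervix no whole array was. A lack of overlap between the groups was common. Every whole rat lay above every depleted rat for 3034 (21.3%) of all genes tested, and below for 3289 (23.1%). Within scan day 3, where the whole rats and rat 4 are 4 of the same 6 rats, 550 (3.86%) were called higher and 269 (1.89%) lower, among them 427 of the 1466 and 202 of the 1141 genes. Without depleted rat 4 the counts rose to 2435 (17.1%) and 2147 (15.1%), without depleted rat 1 they were 643 (4.51%) and 450 (3.16%), and without depleted rat 2 they were 791 (5.55%) and 483 (3.39%). The split between the directions moved with the scaling: centred on the median of each array, 1045 genes were higher and 1838 lower (median of all tested genes -0.32), and scaled to the 75th percentile of the probes detected on all 12 arrays, 1767 and 745 (median 0.13, against -0.06 as reported). With slide as a fixed block 45 and 9 genes were called, with scan day as a fixed block 546 (3.83%) and 335 (2.35%), and with normexp background correction 214 (1.5%) and 96 (0.673%).

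Cd68, the transcript of the antigen that ED1 binds, did not separate the groups. Its level was 0.23, 1.32 and 0.68 in the whole and 1.04, -0.33 and 1.96 in the depleted rats, so that the highest and the lowest of the 6 rats were both depleted. The difference was -0.15 ± 0.62 (SE; adjusted p = 0.882), and within scan day 3 it was -1.22 (adjusted p = 0.172). Its probe lies at chr10:56481726-56481785 in rn4, the rat genome build of the array files, and it was well above background on all 6 arrays. The Mφ marker Adgre1, an adhesion receptor, was at 0.95, 0.21 and 0.37 in the whole and -5.97, -7.27 and -5.96 in the depleted rats. No depleted array was well above background for it, and the difference was at least 37-fold (adjusted p = 1.24e-05). "At least" marks such bounds throughout: the depleted level is taken as no lower than the dimmest signal that the software rated well above background on each array. The adjusted p beside a bound is from the fit to the levels without it and does not test the bound. The bounds also rest on the background correction of the scanner output. Csf1r, with its probe at chr18:57105231-57105932, was at 2.01, 1.53 and 1.58 in the whole and -4.41, -4.86 and -5.83 in the depleted rats, a change of 6.74 ± 0.41 (SE; adjusted p = 6.63e-06). Depleted rat 4 lay below the dimmest signal rated well above background on its array (-3.72). The same holds for Cd163 and Alox5ap below, and fitted sizes of such genes rest in part on levels under that signal. All 3 whole rats lay above all 3 depleted rats for Adgre1 and Csf1r, and the spread within each group was small beside the gap. Fewer Mφs and less of such RNA in each Mφ cannot be told apart in these bulk samples, nor can the same be told apart for any other cell type.

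Of 21 listed Mφ genes, 18 could be tested, and 13 were higher and 0 lower in whole cervix, with a median difference of 4.43 against -0.06 over all genes tested. A gene could pass the background filter through the whole arrays alone, so this median is only a description: over the 8 members well above background on all 6 arrays it was 2.73, and with normexp correction it was 2.00 over the 18. Of the 18 differences 16 were positive and 2 negative, and for 1 member that was not called every depleted rat lay above every whole rat. The mean level of the 18 genes was 1.40, 1.40 and 1.24 in the whole and -2.72, -2.17 and -2.77 in the depleted rats, and rat 4 did not stand apart from the other depleted rats. Cd163, the scavenger receptor for haemoglobin, was at 0.53, 0.27 and 0.71 in the whole and -4.29, -4.35 and -5.67 in the depleted rats, a change of 5.28 ± 0.50 (SE; adjusted p = 1.07e-04). Mrc1, the mannose receptor, was at least 22.6-fold (adjusted p = 1.37e-04) higher, and the complement genes C1qa and C1qc, which tissue Mφs make, changed by 5.04 ± 0.70 (SE; adjusted p = 0.00108) and 6.19 ± 0.68 (SE; adjusted p = 2.49e-04). These Mφ transcripts were thus separated by gaps of several log2 units while Cd68 was not. Within scan day 3, 12 of the 18 were called and the median was 4.97, and with normexp correction 9 were called. Among the 5 tested members that were not called were, beside Cd68, Msr1, Folr2 and Cd14, named here after their values were seen. Cd14, the lipopolysaccharide co-receptor, was at 2.98, 3.17 and 3.33 in the whole and 2.46, 3.18 and 3.06 in the depleted rats, and Folr2 at 2.34, 3.30 and 2.35 in the whole and 0.03, -0.29 and 3.15 in the depleted rats, where rat 4 was as high as the whole rats.

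**Figure D1:**
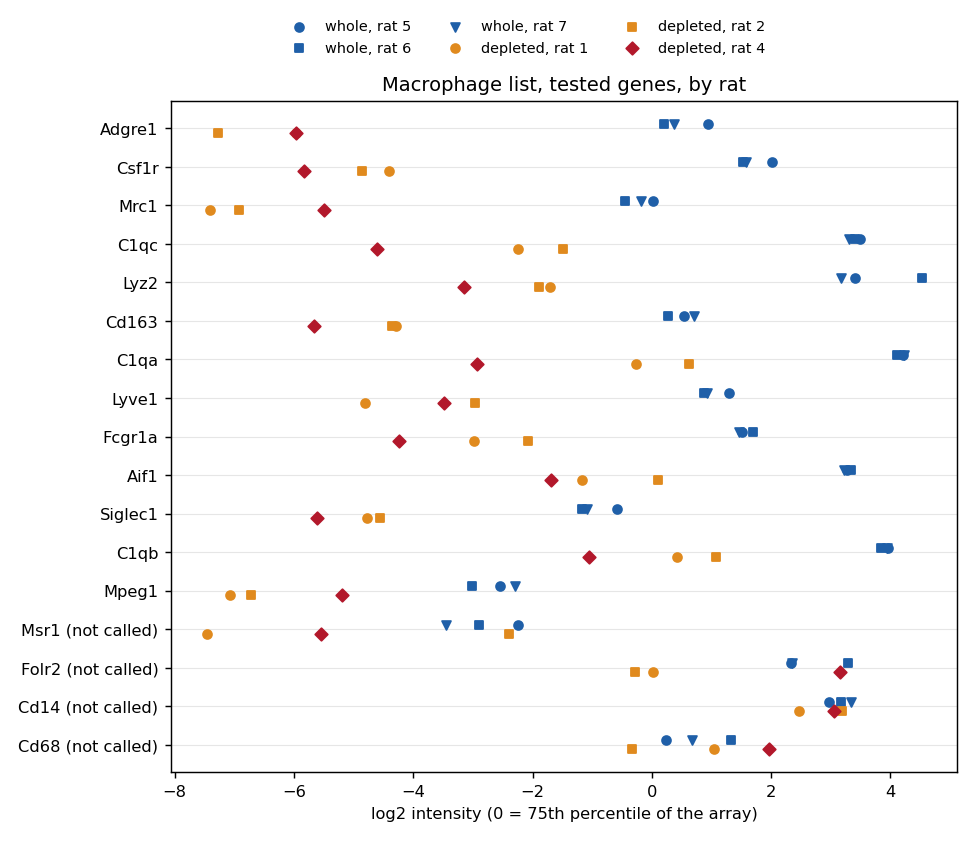
Each row is 1 of 17 tested genes of the macrophage list and each point the log2 intensity of a D21 rat relative to the 75th percentile of its array, blue for whole and orange or red (rat 4) for depleted cervix. For the 13 called genes every whole rat lies to the right of every depleted rat, while for Cd68 the highest and the lowest points are depleted rats; for Adgre1 the points of rats 1 and 4 coincide.

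Genes shared by leukocytes, Mφs included, and part of the mast cell, neutrophil and monocyte genes were also higher in whole cervix. Of 11 tested pan-leukocyte genes 8 were higher in whole cervix and 0 lower (median 3.85, and 1.61 over the 6 well above background on all 6 arrays), with 2 called after normexp correction, and their mean level was 0.46, 0.48 and 0.32 in the whole and -2.68, -2.31 and -2.57 in the depleted rats. Ptprc, which encodes the leukocyte common antigen CD45, was at -0.65, -0.47 and -0.90 in the whole and -6.55, -5.33 and -5.51 in the depleted rats, at least 16.3-fold (adjusted p = 7.18e-05) higher. Cd53, a leukocyte tetraspanin, changed by 5.23 ± 0.37 (SE; adjusted p = 1.24e-05), and Itgb2, the integrin chain shared by leukocyte adhesion receptors, was at least 6.03-fold (adjusted p = 0.00215) higher. The 3 not called were Lcp1, Rac2 and Arhgdib, at differences of 0.83, -0.33 and -0.22. Beyond this shared set, 5 of 8 tested mast cell genes were higher in whole cervix: Cpa3, the mast cell carboxypeptidase, was at least 9.08-fold (adjusted p = 3.46e-04) higher, Tpsab1, a tryptase, changed by 2.35 ± 0.62 (SE; adjusted p = 0.0232), and the proteases Mcpt1, Tpsb2 and Cma1 made up the rest. None of the 8 was called with normexp correction or with slide as a fixed block, and over the 3 members that every one of the 6 arrays measured above background the median was -0.21, against 2.81 over the 8. Kit, the stem cell factor receptor, was at 0.01, 0.06 and 0.34 in the whole and -0.75, -0.81 and 0.88 in the depleted rats, with rat 4 the highest of the 6 rats, and was not called. In the neutrophil and monocyte list 4 of 7 tested genes were higher, among them Ccr2, the receptor that draws monocytes into tissue, at least 7.62-fold (adjusted p = 0.00788), and Csf3r, at least 2.76-fold (adjusted p = 0.0136). None of the 7 was called with slide as a fixed block or with normexp correction, where the median was 0.38 against 2.41. The granulocyte genes S100a8 and S100a9 was at a difference of 1.37 ± 0.54 (SE; adjusted p = 0.0861) and 1.70 ± 1.03 (SE; adjusted p = 0.243). Within scan day 3, S100a9 was the 1 called of the 7.

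Lymphocyte markers were dim. In the T and NK cell list 7 of 17 genes on the arrays could be tested and 7 were well above background on no D21 array, among them Cd3e, Cd2 and Cd5, named after their values were seen. Of the 7 tested, Cd3g, a chain of the T cell receptor complex, was called at 1.42 ± 0.47 (SE; adjusted p = 0.0488) and Nkg7 at 1.83 ± 0.50 (SE; adjusted p = 0.0269). With normexp correction 0 of the 7 were called, and their median was 0.04 against 1.42. Cd3d, a partner chain of Cd3g, was at -3.21, -3.37 and -3.56 in the whole and -2.80, -3.40 and -3.14 in the depleted rats, and Lck was at a difference of 0.87 ± 0.46 (SE; adjusted p = 0.187). The groups overlapped for Cd3d and not for Cd3g, and all 6 rats had a signal well above background for each. Of the B cell list, 3 of 7 could be tested and 0 were called, and the median was 0.74. In the dendritic cell list 2 of 7 could be tested, and Flt3 was at least 2-fold (adjusted p = 0.00342) higher in whole cervix.

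For the pan-leukocyte genes, promoters from RefSeq (the rat build GRCr8) were searched for the site of PU.1, a transcription factor of myeloid and B cells encoded by Spi1, in the letters GAGGAAGT on both strands. The window ran from 250 bases before to 50 bases after the start of each gene. It held the letters in 3 of 9 pan-leukocyte promoters (Cd37, Cd53 and Vav1), in 0 of 14 Mφ promoters, in 0 of 5 housekeeping promoters, and in 2.62% of the promoters of all 27457 genes. A match is a description of the letters and no evidence of binding. Cd53 (250 bases before its start, chr2:197087897-197088146, minus strand) and Vav1 (chr9:2248705-2248954, plus strand), which encodes a signalling protein of blood cells, are shown 5′ to 3′ with the match in capitals, that of Cd53 read on the opposite strand.
Cd53: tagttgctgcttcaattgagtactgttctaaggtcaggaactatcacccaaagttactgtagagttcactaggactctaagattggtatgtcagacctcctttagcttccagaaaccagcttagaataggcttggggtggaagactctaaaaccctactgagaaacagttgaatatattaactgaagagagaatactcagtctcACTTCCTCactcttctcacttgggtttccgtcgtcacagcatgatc
Vav1: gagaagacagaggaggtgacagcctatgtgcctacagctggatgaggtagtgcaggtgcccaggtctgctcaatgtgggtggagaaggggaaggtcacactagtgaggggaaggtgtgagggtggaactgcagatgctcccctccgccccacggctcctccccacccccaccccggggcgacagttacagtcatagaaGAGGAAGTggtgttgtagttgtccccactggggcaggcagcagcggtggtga
The matches lay 46 to 39 bases before the start of Cd53 and 52 to 45 bases before that of Vav1. Vav1 was at -2.65, -2.79 and -3.03 in the whole and -7.52, -7.24 and -5.82 in the depleted rats, at least 3.68-fold (adjusted p = 0.00277) higher in whole cervix. Spi1 itself was at -0.70 ± 0.26 in the whole and -4.22 ± 0.67 in the depleted rats (mean ± SD, n = 3 each), a change of 3.52 ± 0.43 (SE; adjusted p = 5.00e-04), and was the 1 called gene of 9 tested in the list of myeloid transcription factors, whose median change was -0.21. Irf8 and Cebpa, which act with PU.1 in myeloid cells, were not called, at 0.44 ± 0.55 (SE; adjusted p = 0.584) and 0.46 ± 0.34 (SE; adjusted p = 0.346).

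The functions by which Mφs are known followed their markers unevenly. All 6 tested genes of the MHC class II list were higher in whole cervix, with a median of 4.51 over all rats and 5.18 within scan day 3, where all 6 were also called. Cd74, the invariant chain that guides class II proteins to the lysosome, was at 4.44, 4.43 and 4.10 in the whole and 0.15, 1.14 and -0.69 in the depleted rats, a change of 4.12 ± 0.39 (SE; adjusted p = 1.04e-04). RT1-Da and RT1-Db1, chains of a class II protein, changed by 4.70 ± 0.34 (SE; adjusted p = 1.49e-05) and 4.46 ± 0.34 (SE; adjusted p = 2.00e-05), although genes of this family are alike in sequence and their probes may share targets. In the list of Fc receptors and their adaptors 6 of 8 tested genes were higher (median 3.95). The antibody receptors Fcgr1a and Fcgr2b changed by 4.65 ± 0.50 (SE; adjusted p = 2.31e-04) and 3.52 ± 0.42 (SE; adjusted p = 4.58e-04), and Fcgr3a was at least 24.7-fold (adjusted p = 1.24e-05) higher. Of the complement list, 7 of 15 were higher: beside the C1q genes, C5ar1, the receptor for the C5a fragment, was at least 18.2-fold (adjusted p = 3.94e-04) higher. Cfp, properdin, was at 1.24, 1.50 and 1.52 in the whole and -0.99, -0.48 and 2.11 in the depleted rats, with rat 4 above all whole rats, and was not called. Fcgrt and Syk, the tested Fc list members not called, were at differences of 0.18 and -0.18.

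Toll-like receptors, which sense microbial products, were split. Tlr7 was at least 8.75-fold (adjusted p = 0.00155) higher in whole cervix, and Tlr8 and Ly86 were the other called members of 10 tested. With normexp correction 0 of these 10 were called, and their median was 0.43 against 0.88. Tlr2 was at 0.50, 0.27 and 0.16 in the whole and -0.42, -0.08 and -0.70 in the depleted rats and Tlr4 at -0.68, -0.77 and -0.81 in the whole and -0.82, -0.98 and -0.22 in the depleted rats. For Tlr4 the groups overlapped, and the difference was -0.08 ± 0.33 (SE; adjusted p = 0.878). Among scavenger receptors 8 of 10 tested genes were higher (median 2.43, and 1.96 within scan day 3). Cd36, which binds oxidised lipids, changed by 2.06 ± 0.37 (SE; adjusted p = 0.00434), and Mertk, which binds dying cells, was at least 2.83-fold (adjusted p = 0.00379) higher. With normexp correction 1 of the 10 was called, and the change of Mertk was -0.10. Msr1 was at -2.24, -2.89 and -3.45 in the whole and -7.46, -2.40 and -5.54 in the depleted rats, where depleted rat 2 lay within the whole rats, and was not called.

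Lysosomal genes moved little by comparison. Of 23 tested, 5 were higher in whole cervix (Ctss, Ctsh, Lamp2, Npc2 and Asah1) and 0 lower, and the median was 0.41. Ctss, a cathepsin of antigen presenting cells, was at 2.06, 2.40 and 2.41 in the whole and -0.36, -1.61 and -0.06 in the depleted rats, a change of 2.97 ± 0.51 (SE; adjusted p = 0.00351). Ctsb and Ctsd, cathepsins found in most cells, were at differences of 0.09 ± 0.36 (SE; adjusted p = 0.867) and -0.20 ± 0.34 (SE; adjusted p = 0.688), and the groups overlapped for both. The mean level of the list was 2.89, 2.67 and 2.78 in the whole and 2.25, 2.23 and 2.09 in the depleted rats. Every whole rat was thus above every depleted rat on this mean, by a gap far below that of the Mφ list.

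Among chemokines the ligands went both ways. Cxcl13, which draws B cells, was at -0.29, 1.02 and -0.39 in the whole and -7.17, -5.17 and -5.95 in the depleted rats, at least 28.1-fold (adjusted p = 1.48e-04) higher in whole cervix, and Ccl5 was the other called in that direction. Cxcl1 and Cxcl2, which draw neutrophils, were higher in depleted cervix. Cxcl1 was at -1.37, -4.89 and -4.36 in the whole and 2.77, 3.52 and 1.28 in the depleted rats, a change of -6.06 ± 1.06 (SE; adjusted p = 0.00371). Cxcl2 was at -4.02, -4.76 and -5.05 in the whole and 1.94, 3.15 and -0.01 in the depleted rats, a change of -6.31 ± 1.07 (SE; adjusted p = 0.00332), and 1 of the 3 whole arrays was well above background for each. The third ligand higher in depleted cervix was Cxcl10, and Ccl2, which draws monocytes, was at 0.59, 0.74 and -0.12 in the whole and -0.39, 0.48 and -0.56 in the depleted rats, with overlapping groups. Over the 15 tested ligands 2 were higher and 3 lower, and with normexp correction 0 and 2. Of 10 tested receptors 5 were higher in whole cervix and 1, Ccr9, lower. With normexp correction 0 of the 10 were called, and their median was 0.19 against 1.22. Over the 5 receptors well above background on all 6 arrays it was 0.48. With slide as a fixed block 0 receptors were called higher and 1 lower. Ccr1 was at least 15.4-fold (adjusted p = 5.28e-04) higher in whole cervix. Cytokine genes were called in 1 of 11, beside 8% of all genes tested called higher in depleted cervix. Il1a was at -2.33, -3.09 and -4.66 in the whole and -1.15, -0.33 and 0.72 in the depleted rats, a change of -3.10 ± 1.02 (SE; adjusted p = 0.0485), toward depleted cervix. The Il1a call was lost with either fixed block, with normexp correction, and without depleted rat 1 or 2. Il1b was at a difference of 1.67 ± 0.55 (SE; adjusted p = 0.0504), and Tnf was at -2.15, -3.03 and -3.37 in the whole and 0.07, 0.31 and -2.66 in the depleted rats, where rat 4 lay within the whole rats.

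Most immediate-early genes were higher in depleted cervix. Of 25 tested, 18 were higher in depleted cervix and 1, Klf2, higher in whole cervix, with a median of -2.12, and of -1.30 over the 20 genes well above background on all 6 arrays. With normexp correction 8 of the 25 were called higher in depleted cervix, with scan day as a fixed block 11, and with slide as a fixed block 2. In each of these settings 0 of the immediate-early genes were called higher in whole cervix. The mean level of the 25 genes was 0.11, -0.01 and -0.08 in the whole and 2.53, 2.41 and 1.95 in the depleted rats. Fos was at 1.30, 2.30 and 2.38 in the whole and 3.75, 3.90 and 4.73 in the depleted rats, a change of -2.13 ± 0.38 (SE; adjusted p = 0.00414). Egr1, a zinc finger factor induced by growth factors and stretch, was at -1.66, -0.65 and -1.84 in the whole and 3.42, 2.62 and 3.03 in the depleted rats, a change of -4.41 ± 0.35 (SE; adjusted p = 2.82e-05). Fosb was at -4.79, -4.53 and -4.59 in the whole and -0.88, -0.68 and -0.74 in the depleted rats, at least 11.4-fold (adjusted p = 1.93e-04) lower in whole cervix, with no whole array well above background. No whole rat reached any depleted rat for these 3 genes. Further members were named by the rule on size: Atf3, a stress-induced factor, at -5.54 ± 0.47 (SE; adjusted p = 5.60e-05), Fosl1, at least 12-fold (adjusted p = 9.32e-06) lower, and Egr4, at least 10.8-fold (adjusted p = 1.37e-04) lower in whole cervix. Within scan day 3, 11 of the 25 genes were called lower in whole cervix and the median was -1.40, and Fos, Egr1, Fosb, Fosl1, Atf3 and Egr4 were among them.

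Heat shock genes were on the same side. Of 11 tested, 5 were higher in depleted cervix and 0 lower, all 11 differences were negative, and the median was -0.95. Hspa1b, the inducible Hsp70 chaperone, was at 0.63, 0.30 and 0.05 in the whole and 5.57, 4.77 and 4.99 in the depleted rats, a change of -4.78 ± 0.25 (SE; adjusted p = 2.96e-06), although its near-identical copy Hspa1a, not analysed here, may share its probe. Dnajb1, the partner of Hsp70, was at 2.34, 2.57 and 2.33 in the whole and 5.73, 5.50 and 5.29 in the depleted rats, a change of -3.09 ± 0.21 (SE; adjusted p = 1.06e-05). Both were separated by more than 2 log2 units in every rat. Hsph1 was at a difference of -0.95 ± 0.41 (SE; adjusted p = 0.114), and the other called members were Hspb1, Hspd1 and Bag3. Of the list of endoplasmic reticulum stress, 1 of 11 was called, Ddit3, higher in depleted cervix, and of oxidative stress 0 of 8 by limma, with medians of 0.02 and 0.04. The 1 of 11 stands beside 8% of all genes tested called higher in depleted cervix. The Ddit3 call was lost with either fixed block, with normexp correction, and without depleted rat 1 or 2. The median of all genes tested was -0.06.

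**Figure D2:**
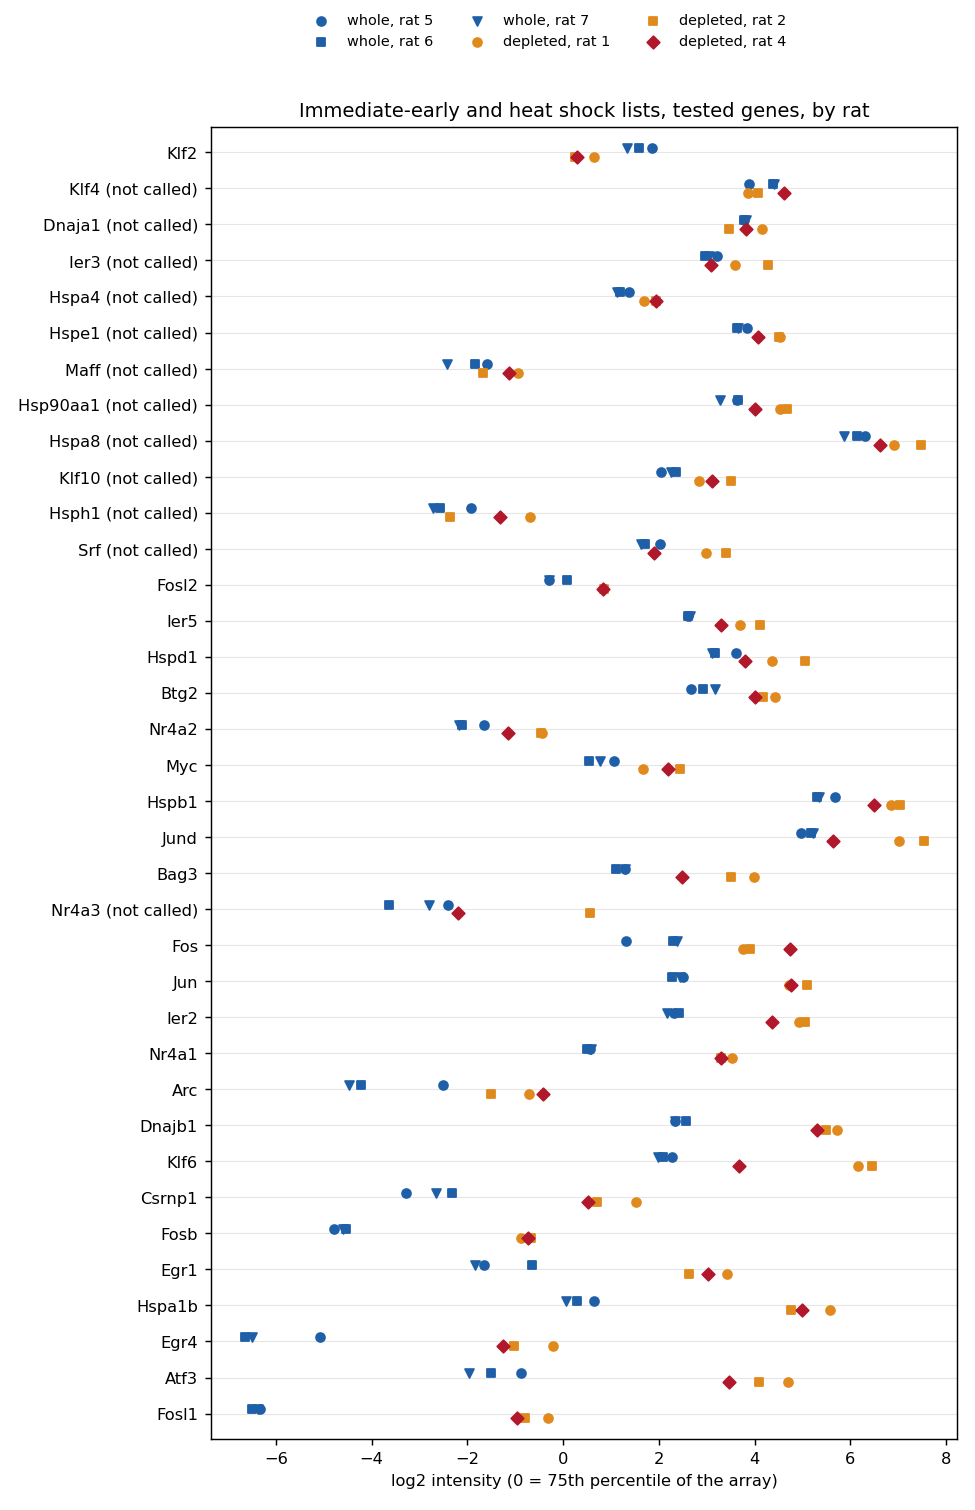
Rows are the tested genes of the immediate-early and heat shock lists, points the log2 intensity of each D21 rat relative to the 75th percentile of its array (blue whole, orange and red depleted). From Fos down to Fosl1 every depleted rat lies to the right of every whole rat, and Klf2 is the called gene with the opposite order.

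Promoters of these lists are shown because known response elements can be looked for in the letters. Searched on both strands were the CArG box bound by serum response factor, the cyclic AMP response element TGACGTCA, and a heat shock element of the letters GAANNTTC. The CArG box stood in 5 of 17 immediate-early promoters (Egr1, Egr2, Klf6, Srf and Zfp36) and in 1.77% of the promoters of all genes. Of these 5, Egr1 and Klf6 were higher in depleted cervix, Srf was not called, and Egr2 and Zfp36 could not be tested. The cyclic AMP response element stood in 4 of 17 (Btg2, Ier2, Jund and Maff) and in 2.00% of all, and of these genes all but Maff were higher in depleted cervix. The heat shock element stood in 8 of 9 promoters of the heat shock list, in 2 of 14 Mφ promoters and in 9.09% of all, and 0 of 5 housekeeping promoters held any of them. Of the heat shock genes with it, Bag3, Dnajb1, Hspb1 and Hspd1 were called, and Dnaja1 (-0.02), Hspa8, Hspe1 and Hsph1 were not. Both Mφ genes with it were higher in whole cervix. The genes printed here were all called, and a link between element and change was not tested. These are the 250 bases before the start, 5′ to 3′, with the element in capitals: a CArG box in Klf6 (chr17:69458479-69458728, minus strand), a cyclic AMP response element in Ier2 (chr19:40399123-40399372, plus strand), and heat shock elements in Dnajb1 (chr19:41431142-41431391, minus strand) and Bag3 (chr1:192533210-192533459, plus strand).
Klf6: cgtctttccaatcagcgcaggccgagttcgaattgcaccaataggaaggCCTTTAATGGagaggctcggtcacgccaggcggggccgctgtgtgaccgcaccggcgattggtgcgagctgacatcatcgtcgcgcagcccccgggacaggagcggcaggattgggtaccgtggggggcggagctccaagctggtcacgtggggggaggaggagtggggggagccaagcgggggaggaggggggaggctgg
Ier2: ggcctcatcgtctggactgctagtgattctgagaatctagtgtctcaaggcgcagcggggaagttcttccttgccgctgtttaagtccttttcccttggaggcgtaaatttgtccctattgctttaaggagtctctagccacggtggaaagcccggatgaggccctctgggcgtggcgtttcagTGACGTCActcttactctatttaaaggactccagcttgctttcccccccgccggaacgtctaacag
Dnajb1: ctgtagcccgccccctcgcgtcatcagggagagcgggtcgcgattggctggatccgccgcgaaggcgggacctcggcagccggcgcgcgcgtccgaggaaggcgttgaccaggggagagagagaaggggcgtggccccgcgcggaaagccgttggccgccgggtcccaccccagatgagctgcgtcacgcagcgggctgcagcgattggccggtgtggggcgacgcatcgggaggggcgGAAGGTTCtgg
Bag3: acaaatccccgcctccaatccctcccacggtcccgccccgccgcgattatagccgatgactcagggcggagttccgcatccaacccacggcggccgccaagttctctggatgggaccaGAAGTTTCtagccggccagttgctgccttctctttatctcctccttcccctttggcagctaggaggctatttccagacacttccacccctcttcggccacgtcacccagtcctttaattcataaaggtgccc
The element began 201 bases before the start in Klf6, 66 in Ier2, 11 in Dnajb1 and 132 in Bag3. Klf6, a zinc finger factor, was at 2.27, 2.08 and 1.99 in the whole and 6.16, 6.44 and 3.67 in the depleted rats, a change of -3.31 ± 0.59 (SE; adjusted p = 0.00402). Ier2 changed by -2.48 ± 0.26 (SE; adjusted p = 2.05e-04) and Bag3, a co-chaperone, by -2.09 ± 0.33 (SE; adjusted p = 0.00216). For Klf6 and Bag3 depleted rat 4 lay nearest to the whole rats.

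Genes that limit such responses were also higher in depleted cervix, 7 of 17 tested, with 1, Rgs2, higher in whole cervix. Dusp1, a phosphatase of MAP kinases, was at 2.36, 2.72 and 2.62 in the whole and 4.36, 3.93 and 4.77 in the depleted rats, a change of -1.79 ± 0.36 (SE; adjusted p = 0.00738), and Dusp5 changed by -3.61 ± 0.53 (SE; adjusted p = 0.00139). Socs3 was at a difference of -0.79 ± 0.40 (SE; adjusted p = 0.163). In the EGF family, Hbegf, a growth factor shed from the cell surface, was at -1.49, -1.42 and -2.53 in the whole and 1.75, 1.49 and 1.81 in the depleted rats, a change of -3.50 ± 0.46 (SE; adjusted p = 7.34e-04). Areg changed by -1.97 ± 0.57 (SE; adjusted p = 0.0325) and Erbb2 was the third member higher in depleted cervix, while Btc was higher in whole cervix. The receptor Egfr was at a difference of -0.85 ± 0.31 (SE; adjusted p = 0.0714). With normexp correction or scan day as a fixed block, 1 of the 7 tested EGF family genes was called lower and 0 higher in whole cervix. With slide as a fixed block 0 of the 7 were called. Over all genes tested, 10.3% were called higher and 8% lower in whole cervix. Of 12 genes of the hypoxia response, Vegfa and Adm were higher in depleted cervix, at -1.06 ± 0.25 (SE; adjusted p = 0.0167) and -2.04 ± 0.34 (SE; adjusted p = 0.00308), and Slc2a1 was not called. Adm, adrenomedullin, was at 2.18, 2.73 and 1.85 in the whole and 4.75, 4.26 and 3.86 in the depleted rats, with no overlap.

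Most smooth muscle genes, and fewer of the matrix genes, were higher in whole cervix. Of 13 smooth muscle genes 10 were called higher (median 2.61, and 1.96 over the 10 well above background on all 6 arrays). Within scan day 3 the median of the 13 was 3.03. With normexp correction 5 of the 13 were called higher (median 1.89), and with slide as a fixed block 3 (median 2.22). Myh11, the smooth muscle myosin heavy chain, was at 4.76, 4.44 and 4.47 in the whole and 1.35, 1.99 and 2.36 in the depleted rats, a change of 2.66 ± 0.27 (SE; adjusted p = 1.37e-04). Acta2 was at 3.93, 3.74 and 3.59 in the whole and 3.21, 3.66 and 1.83 in the depleted rats, where depleted rat 2 was within the range of the whole rats, and Actg2 at 7.04, 6.66 and 6.24 in the whole and 4.85, 6.22 and 3.34 in the depleted rats; neither passed, at 0.85 ± 0.43 (SE; adjusted p = 0.161) and 1.84 ± 0.62 (SE; adjusted p = 0.0542). For both, rat 4 had the lowest level. In the fibroblast list 5 of 12 were higher. Dcn, the collagen-binding proteoglycan decorin, was at 5.92, 5.93 and 5.72 in the whole and 3.31, 3.86 and 4.05 in the depleted rats, a change of 2.12 ± 0.25 (SE; adjusted p = 4.50e-04). Col1a1, a chain of the main fibrillar collagen, was at 8.21, 7.81 and 7.60 in the whole and 7.06, 7.79 and 7.37 in the depleted rats, a difference of 0.46 ± 0.44 (SE; adjusted p = 0.458), and Pdgfra, a receptor of fibroblasts, was at 0.63 ± 0.28 (SE; adjusted p = 0.119). The mean level of the fibroblast list was 4.23, 4.06 and 3.77 in the whole and 2.28, 2.91 and 3.04 in the depleted rats.

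Of 15 collagen genes 4 were higher in whole cervix (Col4a5, Col5a2, Col6a1 and Col4a2), with a median of 0.31, and 0 were called by limma within scan day 3. Col4a5, a basement membrane collagen, changed by 3.27 ± 0.51 (SE; adjusted p = 0.00208), and Col5a1 and Col6a3 were at differences of 0.31 ± 0.40 (SE; adjusted p = 0.589) and 1.81 ± 0.74 (SE; adjusted p = 0.0948). Of 16 elastic fibre genes 9 were higher and all 16 differences were positive (median 1.49): Eln, elastin, changed by 1.60 ± 0.52 (SE; adjusted p = 0.0468), Fbn1, fibrillin, by 2.20 ± 0.59 (SE; adjusted p = 0.0247), and Lox, which crosslinks collagen and elastin, by 1.89 ± 0.48 (SE; adjusted p = 0.0203). Lox was at 0.43, 0.77 and 0.18 in the whole and -2.20, -1.33 and -0.77 in the depleted rats. Its groups did not overlap, but with slide as a fixed block its change was -0.11. Of the small leucine-rich proteoglycans 4 of 8 were higher (Dcn, Lum, Ogn and Aspn), and Bgn, biglycan, was not called. Lum, lumican, was at 3.62, 3.49 and 3.18 in the whole and -0.62, -0.09 and 1.22 in the depleted rats, a change of 3.26 ± 0.45 (SE; adjusted p = 0.00108). Among matricellular genes 3 of 11 were higher. Postn, periostin, was at 3.35 ± 0.28 in the whole and -1.63 ± 0.14 in the depleted rats (mean ± SD, n = 3 each), a change of 4.98 ± 0.51 (SE; adjusted p = 1.60e-04). The depleted rats lay close together for Postn, rat 4 included. Thbs1 was at -2.06, -2.58 and -2.90 in the whole and -5.36, -5.90 and -2.11 in the depleted rats, with rat 4 near the whole rats, and Ccn2 was at a difference of 0.37 ± 0.48 (SE; adjusted p = 0.596).

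Among matrix proteases and their inhibitors 3 of 13 tested genes were higher in whole cervix. Mmp12, the Mφ elastase, was at -0.62, -0.34 and -0.64 in the whole and -6.67, -7.07 and -5.87 in the depleted rats, at least 18-fold (adjusted p = 3.46e-04) higher. Mmp2, a gelatinase of stromal cells, was at 5.58, 5.32 and 5.00 in the whole and 4.14, 4.98 and 4.31 in the depleted rats, a difference of 0.83 ± 0.29 (SE; adjusted p = 0.0591). Timp1 was at a difference of 0.58 ± 0.33 (SE; adjusted p = 0.212), and the other called genes were Timp3 and Mmp19. Mmp8, Mmp9, Mmp10 and Mmp13, whose products cut collagen or gelatin, were well above background on no D21 array; they are named after their values were seen. Of the hyaluronan genes, Has2, a hyaluronan synthase, was at least 3.83-fold (adjusted p = 0.0366) higher in whole cervix. Cd44, the hyaluronan receptor, changed by -1.39 ± 0.40 (SE; adjusted p = 0.0311) toward depleted cervix. The Has2 call was lost without any 1 of the depleted rats, with either fixed block and with normexp correction. That of Cd44 was lost without depleted rat 1 or 2, with either fixed block and with normexp correction. In prostaglandin and leukotriene metabolism 5 of 13 were higher and 1, Ptges, lower. With normexp correction 0 of these 13 were called, and their median was 0.16 against 0.82. Alox5ap, which presents arachidonic acid to 5-lipoxygenase, was at 0.02, -0.10 and -0.17 in the whole and -5.07, -3.68 and -4.90 in the depleted rats, a change of 4.47 ± 0.41 (SE; adjusted p = 8.90e-05). Ptgis, prostacyclin synthase, changed by 2.11 ± 0.44 (SE; adjusted p = 0.00904), and Ptgs1, cyclooxygenase 1, was at a difference of -0.25 ± 0.33 (SE; adjusted p = 0.606).

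Part of the vessel genes passed the test, beside 10.3% of all tested genes called higher in whole cervix. Of 12 endothelial genes 4 were higher in whole cervix (Cdh5, Tie1, Emcn and Flt1), and 1 within scan day 3. Cdh5, the cadherin of endothelial junctions, was at -1.41, -1.38 and -1.52 in the whole and -2.66, -2.97 and -2.24 in the depleted rats, a change of 1.19 ± 0.23 (SE; adjusted p = 0.00643). Pecam1 and Kdr overlapped between the groups and were not called, at -0.58 ± 0.41 (SE; adjusted p = 0.314) and 0.30 ± 0.34 (SE; adjusted p = 0.544). Of 7 pericyte genes, Rgs5, Abcc9 and Kcnj8 were higher in whole and Cspg4 higher in depleted cervix. Rgs5 was at 0.26, 0.14 and -0.26 in the whole and -2.12, -1.24 and -2.13 in the depleted rats, and Cspg4 at -0.05, 0.08 and -0.37 in the whole and 1.46, 1.74 and 0.58 in the depleted rats. These 2 pericyte markers ran in opposite directions with no overlap in either. A lack of overlap held for 21.3% of all genes tested toward whole and 23.1% toward depleted cervix. With normexp correction or slide as a fixed block, 0 of the 12 endothelial and 0 of the 7 pericyte genes were called. The Cspg4 call was also lost with scan day as a fixed block and without depleted rat 1 or 2.

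Part of the basal and squamous epithelial genes was on the other side. Of 12 basal and squamous epithelial genes 6 were higher in depleted cervix, 3 of the 12 within scan day 3, and 0 in whole cervix (median -1.85). Their mean level was 2.15, 2.73 and 2.22 in the whole and 3.70, 3.95 and 4.22 in the depleted rats. Tp63, the transcription factor of basal cells, was at 1.09, 1.29 and 0.94 in the whole and 3.87, 4.49 and 3.88 in the depleted rats, a change of -2.98 ± 0.31 (SE; adjusted p = 1.93e-04). Krt5, a basal keratin, was at 5.12, 5.60 and 5.14 in the whole and 7.18, 7.59 and 7.41 in the depleted rats, a change of -2.10 ± 0.30 (SE; adjusted p = 0.00123), and its partner Krt14 was not called at -1.98 ± 0.76 (SE; adjusted p = 0.0814). Of 11 luminal epithelial genes 1, Cldn7, was higher in whole and 2, Cdh1 and Elf3, higher in depleted cervix, beside 10.3% and 8% of all genes tested. None of the 11 was called with normexp correction or with slide or scan day as a fixed block. Epcam was at 4.38, 4.69 and 4.68 in the whole and 3.78, 3.27 and 4.46 in the depleted rats, Krt8 at 5.08, 5.68 and 5.35 in the whole and 4.23, 3.79 and 5.13 in the depleted rats, and Cdh1, E-cadherin, changed by -1.02 ± 0.22 (SE; adjusted p = 0.0104). Among junction genes, Cldn4, a claudin, was at 2.40, 2.46 and 2.16 in the whole and 5.61, 5.14 and 4.84 in the depleted rats, a change of -2.86 ± 0.30 (SE; adjusted p = 1.83e-04), and Dsp, desmoplakin, changed by -2.05 ± 0.55 (SE; adjusted p = 0.0245). Gjb2 was not called. All these levels are relative to the 75th percentile of each array and say nothing of absolute amounts of RNA.

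**Figure D3:**
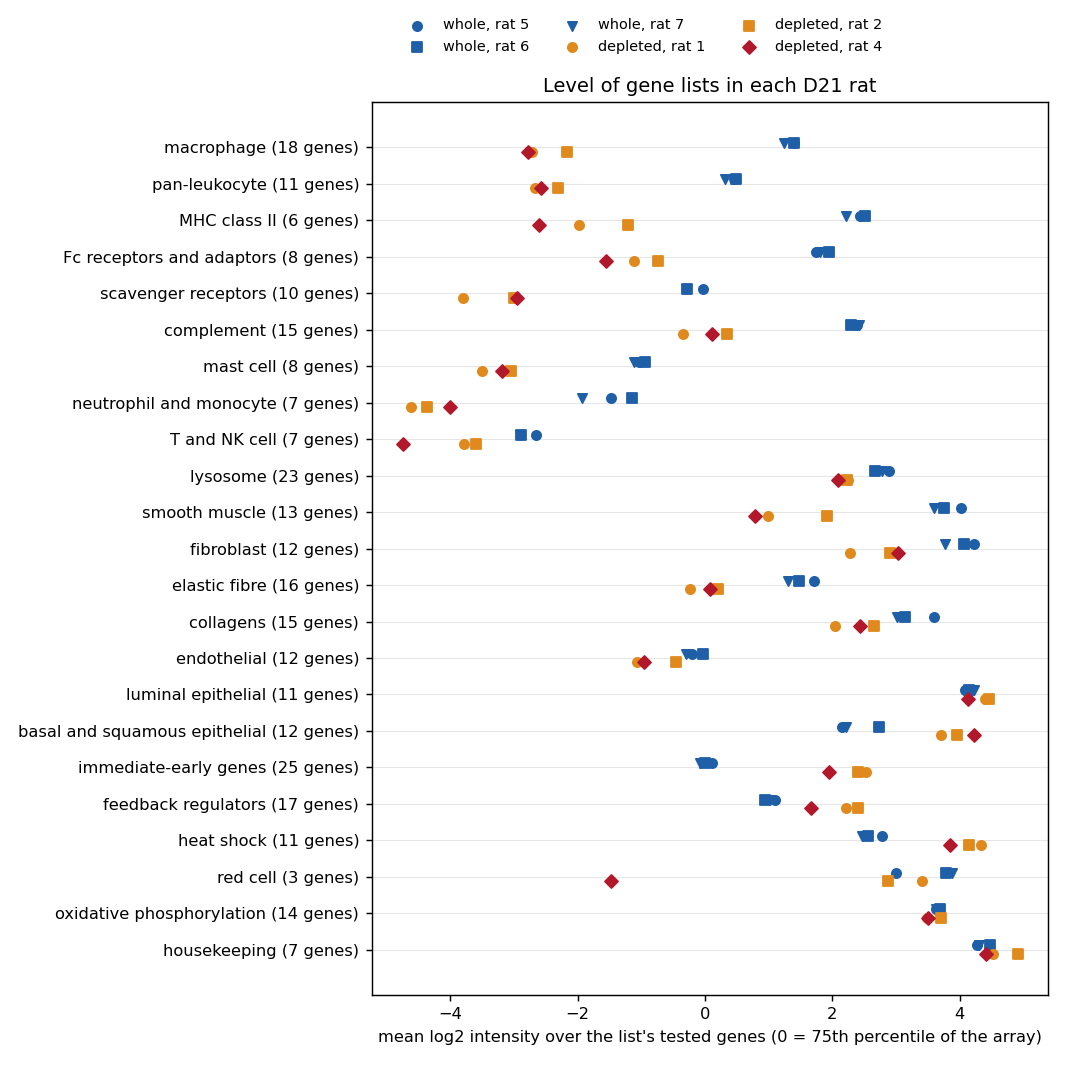
Rows are gene lists, with the number of tested genes, and each point is the mean log2 intensity of a D21 rat over those genes, relative to the 75th percentile of its array. Immune, muscle and matrix lists lie to the right in the whole rats, immediate-early, heat shock and squamous lists in the depleted rats, and the red cell list sets rat 4 (-1.47) apart from the other 5 rats (2.87 to 3.88).

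Some genes separated single rats rather than groups. These were picked after their values were seen. Haemoglobin transcripts were low in depleted rat 4: Hba-a1 was at 5.68, 6.42 and 6.45 in the whole and 6.09, 5.78 and 1.36 in the depleted rats, Hbb at 4.29, 5.11 and 5.09 in the whole and 4.67, 4.02 and -0.40 in the depleted rats and Alas2, an enzyme of haem synthesis in red cells, at -0.96, -0.17 and 0.10 in the whole and -0.51, -1.20 and -5.37 in the depleted rats. None of the 3 was called over all rats, and the median of the red cell list was 2.01 with rat 4 and 0.49 without it. Nefl, a neurofilament gene, was at -3.12, -2.09 and -2.31 in the whole and -7.43, -6.39 and 0.40 in the depleted rats and Vip, the gene of a neuropeptide, at -3.67, -1.08 and -2.26 in the whole and -7.17, -3.96 and 1.14 in the depleted rats, both highest in rat 4. Krt16, a keratin gene, and Slurp1 were high in rat 4 and, less so, in whole rat 6, with Krt16 at 0.21, 2.64 and -2.81 in the whole and 0.45, -0.37 and 5.62 in the depleted rats and Slurp1 at -1.98, 3.45 and -1.89 in the whole and -0.94, -0.19 and 5.06 in the depleted rats. Aqp5, a water channel of glands, had the opposite order, at 3.95, 0.61 and 3.87 in the whole and 4.08, 3.75 and -2.03 in the depleted rats. Rats 4 and 6 were thus high in Krt16 and Slurp1 and low in Aqp5, the other 4 rats the reverse, across both groups. In the NP rats Krt16 also ranged from -4.04 to 6.73. Narf was at -0.20, 0.51 and -0.44 in the whole and 0.52, 0.08 and 9.21 in the depleted rats, and no other of the 12 arrays was above 0.62 for it.

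**Figure D4:**
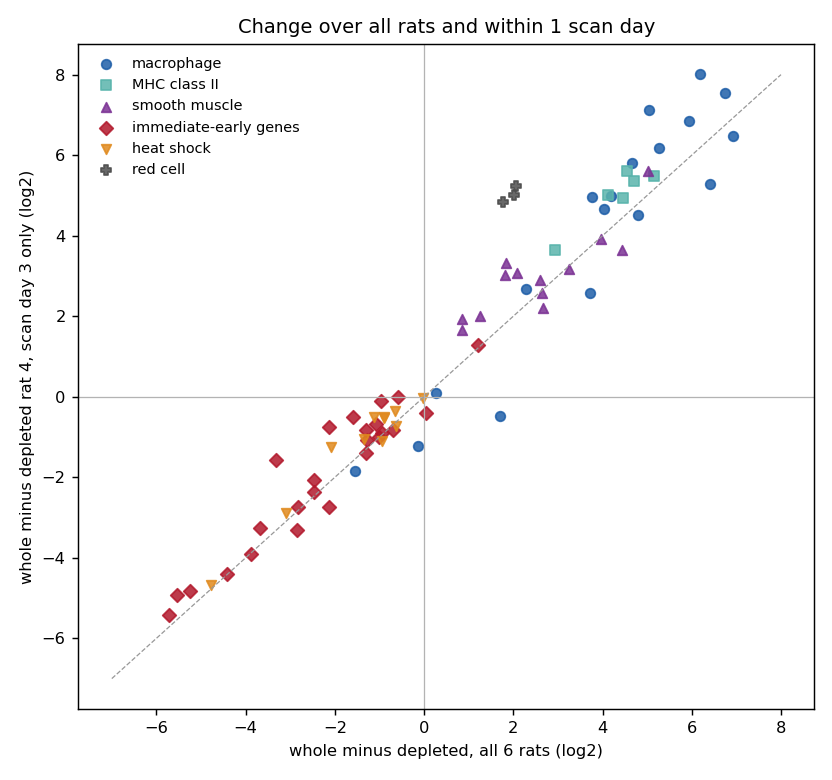
Each point is a tested gene of 6 lists, with its log2 change over all 6 rats on the x axis and the change between the 3 whole rats and depleted rat 4 alone, all scanned on day 3 and part of the 6 rats, on the y axis; the dashed line marks equal values. Most macrophage, MHC class II, immediate-early and heat shock genes lie near the line, while the 3 red cell genes change by 4.83 to 5.23 within the day and by 1.78 to 2.07 over all rats.

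The rule on size added few names to the lists above. Higher in whole cervix were Retnlg, a resistin-like gene of myeloid cells, at least 59.4-fold (adjusted p = 0.008), Gpr34, a lysophospholipid receptor of Mφs and microglia, at least 20.5-fold (adjusted p = 0.00293), and Cd4, which rat Mφs carry as well as T cells, at least 30.2-fold (adjusted p = 1.23e-06). Retnlg was at -0.23, 3.16 and 0.74 in the whole and -6.23, -4.95 and -4.61 in the depleted rats, and rat 6 exceeded the other whole rats by over 2 log2 units. Fcnb, a ficolin of monocytes, was at least 23.4-fold (adjusted p = 0.0159) higher and Fcrl2, an Fc receptor-like gene, changed by 6.45 ± 0.46 (SE; adjusted p = 1.24e-05). Higher in depleted cervix were Eid3, an inhibitor of p300-type coactivators, at least 17.8-fold (adjusted p = 5.04e-04), Klf13, at least 12-fold (adjusted p = 2.94e-04), Cyp4a8, at least 7.19-fold (adjusted p = 0.00866), and Lipogenin, at least 16.6-fold (adjusted p = 8.42e-04), and Pou2f1 changed by -4.34 ± 0.86 (SE; adjusted p = 0.00714). Eid3 was at -5.78, -6.42 and -6.14 in the whole and 0.68, 0.81 and -1.85 in the depleted rats. For Eid3, Klf13, Pou2f1, Lipogenin and Cyp4a8 depleted rat 4 was the lowest of the 3 depleted rats.

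The remaining lists were counted the same way. Their counts stand beside 10.3% of all genes tested called higher and 8% called lower in whole cervix. Cell cycle genes were higher in depleted cervix in 3 of 16 (Plk1, Mcm3 and Kif11), and oxidative phosphorylation genes were called in 0 of 14 by limma. Interferon response genes were higher in whole cervix in 2 of 11 (Ifit3 and Usp18). With scan day or slide as a fixed block or with normexp correction, 0 cell cycle and 0 interferon response genes were called. Coagulation genes went both ways, with F13a1 and Pros1 higher in whole and Plaur among the 2 higher in depleted cervix. F13a1, the coagulation factor XIII chain that tissue Mφs carry, changed by 5.01 ± 0.65 (SE; adjusted p = 7.02e-04). Of the hormone receptors, Prlr was higher in whole cervix as 1 called of 5, and Esr1, Pgr and Rxfp1 were not. Skeletal muscle genes were higher in whole cervix in 2 of 4 (Acta1 and Tnnc2) and Hox genes in 1 of 5 (Hoxa10). With scan day or slide as a fixed block, 0 hormone receptor, 0 skeletal muscle and 0 Hox genes were called. All 4 tested adipocyte genes were without overlap toward whole cervix, as were 21.3% of all genes tested. Of the 4, 2 were called (Lpl and Cfd), and the median of 1.96 ranged from 1.46 to 2.24 over the alternatives. Schwann cell genes were called in 0 of 7 by limma, with a median of 0.60 over all rats and -0.69 within scan day 3. Among 7 housekeeping genes 0 were called: Gapdh, Ppia and Rplp0 were at differences of -0.66 ± 0.34 (SE; adjusted p = 0.171), -0.41 ± 0.28 (SE; adjusted p = 0.296) and -0.84 ± 0.29 (SE; adjusted p = 0.0553), and the median of -0.41 lay toward depleted cervix.

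The removal in NP rats shares no array with that in D21 rats, but it shares slides and scan days: NP depleted rats 5 and 6 were on slide 1 with D21 depleted rat 2, NP depleted rat 7 on slide 3 with D21 depleted rat 4, NP whole rat 10 on slide 4 with the D21 whole rats, and all whole arrays were scanned on day 3. What the stages have in common and what slides and days have in common cannot be told apart in the counts that follow. Of the 1466 genes higher in whole D21 cervix, 1296 could be tested in NP rats, and 796 were called in the same direction and 2 in the opposite. Of the 1141 lower in whole cervix, 1073 could be tested, 551 were called the same way and 3 the other. In all tested genes 14.7% were called higher and 11.7% lower in whole NP cervix. A test of the difference between the 2 changes (interaction in limma) called 106 of the 2607 D21 genes (4.07%) and 350 of 14564 genes in all (2.4%). Of 18 Mφ genes 0 passed it, while 8 of 12 fibroblast genes and 8 of 15 collagen genes did. Over the fibroblast list the D21 median change of 1.09 stood beside 4.15 for NP rats, and over the collagen list 0.31 stood beside 2.68. In the NP rats slide 3 held arrays of both groups, unlike any slide of the D21 rats.

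**Figure D5:**
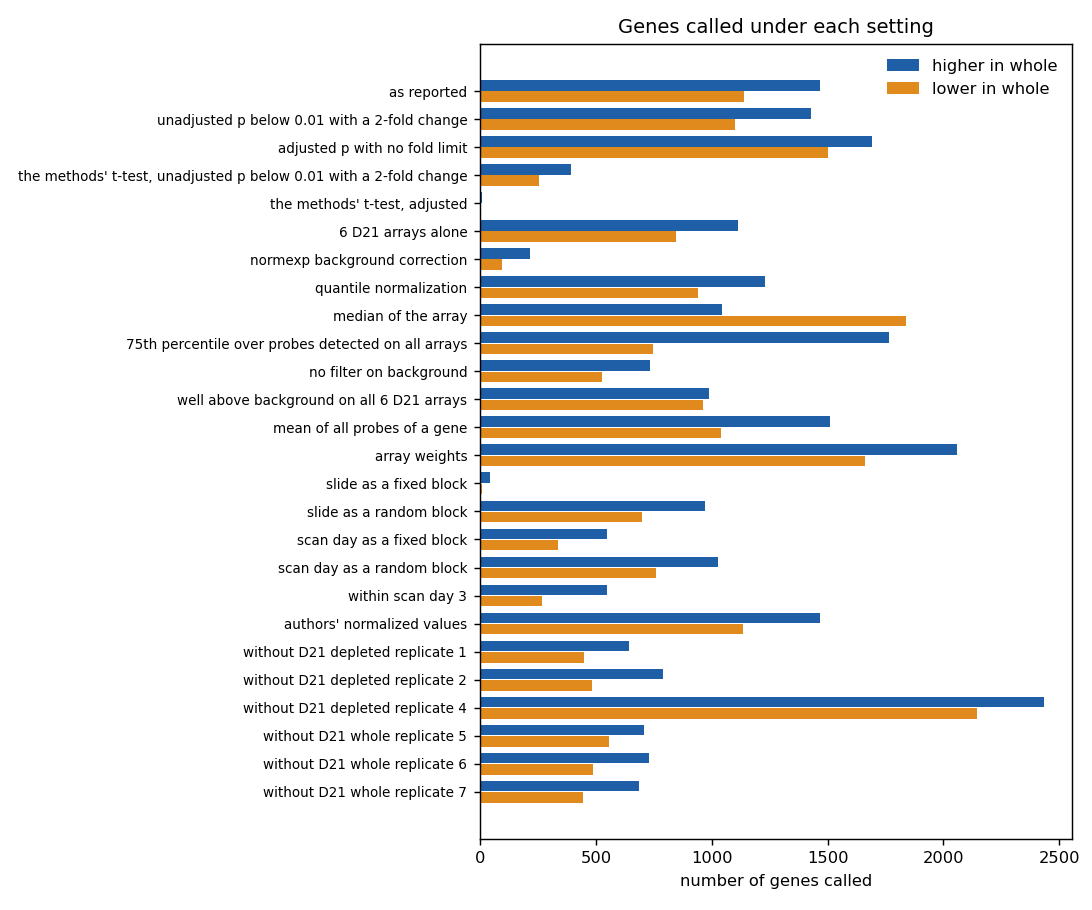
Bars give the number of genes called higher (blue) and lower (orange) in whole than in depleted D21 cervix under each setting, starting at 0, with the reported setting at the top. Counts range from 2435 and 2147 without depleted rat 4 to 8 and 3 with the methods' t-test after adjustment.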

How the data were processed

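Each cervix suspension was measured on its own Agilent rat array. The authors deposited the scanner output, in which spot intensities had been read with Agilent Feature Extraction, corrected for background and detrended per the file headers, with probe coordinates of rn4. The authors also deposited a table of each probe's ratio to the 75th percentile of its array (made with GeneSpring per their methods), used here as an alternative.

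From the intensities, control and outlier spots were left out, spots of a probe averaged, and log2 values taken minus the 75th percentile of the array. A gene was represented by its brightest probe (3398 genes had several, and probes of 1 gene can disagree) and tested where all 3 arrays of either D21 group were well above background. Probes were named through RefSeq accessions for 17492 of 30367 (57.6%), the rest keeping the name in the files. limma 3.58.1 in R 4.3.3 fitted 4 group means over 12 arrays (8 residual degrees of freedom). A gene was called at a Benjamini-Hochberg adjusted p below 0.05 with a change of 2-fold or more, and every adjusted p in the text is from this fit unless another setting is named. P-values measure the spread between these rats, and the number of arrays limits their precision. An exact permutation test of 3 against 3 cannot go below 0.1 and was not used. The methods' t-test, other scalings, filters, blocks for slide and scan day, and leaving out each rat were tried as alternatives. The fit was tested on simulated data.

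The members of the 49 gene lists (599 of 625 symbols found, 7 by a synonym) were chosen with earlier results of these data known. Names in the text follow a rule: Cd68, the first 3 tested members of a list, and in each direction the 10 largest changes among called genes with no overlap between groups. Other genes were named after their values were seen. Members without a row, such as Junb, Ccn1, Stab1 and Hspa1a, were not analysed here, and a few list members are counted but not reported here by name. Promoters came from RefSeq (GRCr8), and figures were drawn with matplotlib 3.10.9 in Python 3.11.15.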

Additional observations from a re-analysis of the deposited data

Results flagged for a closer look

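For 13 named genes the difference between whole and depleted cervix differed between D21 and NP rats by the interaction test of limma (adjusted p over all genes tested), each with log2 whole minus depleted values from 3 against 3 rats. In 10 of them it was larger in NP rats. Among matrix genes, the value for Col1a1 was 0.46 in D21 and 4.33 in NP rats (interaction adjusted p = 0.0114), for Col5a1 0.31 and 4.19 (0.0079), for Dcn 2.12 and 4.63 (0.00706), for Bgn 0.39 and 2.33 (0.015), for Lox 1.89 and 5.01 (0.0407) and for Mmp2 0.83 and 3.57 (0.00798). Among other stromal and smooth muscle genes, the value for Pdgfra was 0.63 and 4.23 (0.00336), for Ptgis 2.11 and 5.13 (0.0338), for Acta2 0.85 and 3.64 (0.0403) and for Actg2 1.84 and 5.73 (0.0464). In Egr1 the excess in depleted cervix was larger in D21 rats, with a value of -4.41 in D21 and -1.65 in NP rats (0.0178). For Egr4 (fitted -5.24 and -1.56, 0.0297) and Fosl1 (fitted -5.71 and -2.45, 0.0111) no whole D21 array was well above background, so that the fitted values rest on levels below the floor and no size is read from them. Slide and scan day differ in how they run with the groups at the 2 stages, and their part in these differences was not tested gene by gene. With slide as a fixed block 4 of 54 genes called in D21 rats differed between the stages, and with scan day as a fixed block 93 of 881, against 106 of 2607 as reported.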

How the results depend on the processing

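Among alternatives tried for D21 rats, counts of genes called higher and lower in whole cervix stayed near the reported 1466 and 1141 with the authors' normalized values (1467 and 1136) and quantile normalization (1231 and 943). They were 214 and 96 with normexp, 734 and 526 with no filter on background, 45 and 9 with slide and 546 and 335 with scan day as a fixed block, 969 and 698 with slide as a random block, 550 and 269 within scan day 3, 394 and 256 with the methods' t-test at its unadjusted threshold and 8 and 3 with that test adjusted. Centring on the median gave 1838 and the percentile of probes detected on all arrays 745 lower. Leaving out a rat gave 643 to 2435 higher and 446 to 2147 lower, both highest without depleted rat 4. The cause was not tested.

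The change of Cd68 turned positive with normexp (0.088), the percentile of detected probes (0.042) and array weights (0.11), ranged from -0.75 to 0.39 on leaving out a rat, and was called under none of the alternatives (adjusted p from 0.172 to 0.971). Genes whose change differed in NP rats numbered 106 as reported, 8 with normexp, 1138 with array weights, 4 with slide as a fixed block, 28 within scan day 3, and 27 to 1447 on leaving out a rat, the most without depleted rat 4.

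Of 76 called genes among the 120 named by rule, 74 kept their direction under each alternative that gave them a value, which 37 had where all 6 arrays must be above background. The exceptions were Mertk and Lox. Alternatives that change only the test, threshold or filter leave each gene's change as it was, so direction cannot turn under them. The 76 genes were also called on these same arrays. Medians of 35 of 48 lists with 3 or more tested genes kept their sign, and those of the mast cell, B cell, pericyte, luminal, Schwann cell, myeloid factor, collagen, hyaluronan, Hox, housekeeping, oxidative phosphorylation and 2 stress lists did not. Direction reversed for these genes. With slide as a fixed block the changes were Cfp -1.64, Msr1 -0.50, Irf8 -1.41, Cebpa -0.46, Ccl2 -1.20, Col1a1 -0.028, Col5a1 -0.46, Col6a3 -0.070, Lox -0.11, Thbs1 -0.80, Timp1 -0.43 and Ppia 0.19. Within scan day 3 they were Kit -0.74, Cfp -0.68, Ctsd 0.47, Irf8 -0.23, Cebpa -0.049, Pecam1 0.30, Thbs1 -0.40 and Ppia 0.17. With scan day as a fixed block they were Kit -0.12, Cfp -0.65, Col1a1 -0.052 and Col5a1 -0.10. With normexp they were Lck -0.0095, Msr1 -0.10, Mertk -0.10, Tlr4 0.070, Il1b -0.047 and Col6a3 -0.024. Tlr4 was 0.11 with the percentile of detected probes and 0.025 with array weights, Ctsb -0.093 with array weights and -0.16 centred on the median, Ctsd 0.10 and Ppia 0.28 with quantile normalization, and Ptgs1 0.75 with all probes averaged. On leaving out a rat Tlr4 ranged from -0.23 to 0.15, Ctsb from -0.15 to 0.52, Ctsd from -0.54 to 0.012, Kdr from -0.049 to 0.72 and Ptgs1 from -0.50 to 0.024. A within-slide comparison was not run, since no slide held both D21 groups. No paired analysis was possible because the D21 groups share no rat numbers. Probes near background on all arrays limit what can be seen of dim genes such as those of lymphocytes.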
